A study of Mus musculus with 32 samples.

Results

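The cell cycle genes described here are 50 listed mouse genes of 4 groups: genes of the passage from G1 into S phase (G1/S), genes of DNA replication, genes of G2 and mitosis, and inhibitors. Of these, 48 have a row among the 22329 genes of the deposited table, with 10 in the G1/S group, 11 in the DNA replication group, 22 in the mitosis group and 5 among the inhibitors. The members Cdt1 and Gins2 were not analysed here. Members were chosen by name, and all 48 passed the filter on low values in every comparison. The study measured polyadenylated RNA in MC38, a mouse colon adenocarcinoma cell line, as an anti-PD-1-resistant line and as its parental line. Anti-PD-1 antibodies release T cells from inhibition through PD-1. There were 12 resistant tumors and 13 parental tumors, grown under the skin of C57BL6/J mice that received no treatment, and 5 resistant and 2 parental libraries of cultured cells. The labels give no age for the mice and do not say how the resistant line was derived or whether it is a clone. Levels are in TPM, the share of a library's transcripts that comes from a gene, scaled by gene length.

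Cells enter S phase when D-type cyclins with Cdk4 or Cdk6, and then E-type cyclins with Cdk2, inactivate the retinoblastoma protein Rb1 and release E2F factors, which switch on the genes of DNA replication. Entry into mitosis is driven by Cdk1 with A- and B-type cyclins, and the transcription factors Foxm1 and Mybl2 (B-Myb) act at promoters of many mitotic genes. Proteins of the Cdkn1 and Cdkn2 families block the cyclin-dependent kinases, and transcripts of most of these genes rise and fall with the cycle, so that in bulk RNA they track the share of dividing cells.

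Promoters were available for 38 of the 48 members from RefSeq on GRCm38.p6, as windows from 250 bases before to 50 bases after each annotated start. Promoters of mitotic genes are known for the cell cycle homology region (CHR, letters TTTGAA) and the CCAAT box (CCAAT), and promoters of replication genes for E2F sites, searched here as TTTCCCGC, TTTGGCGC, TTTCGCGC and TTTGCCGC, each on both strands. A CHR was found in 12 of 17 promoters of the mitosis group (70.59%) and 1 of 11 of the replication group (9.091%), beside 17.89% of all 32851 promoters. An E2F site was found in 5 of 11 replication promoters (45.45%) and 1 of 17 mitosis promoters (5.882%), beside 2.265% of all. CCAAT boxes were in 15 of 17 mitosis and 9 of 11 replication promoters, beside 37.41% of all. These are matches of letters and no test was made.

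The following 150-base stretches are shown as examples of the motifs in mitosis and replication genes. Each runs 5′ to 3′ on the strand of the gene and ends 50 bases after the start, and capitals mark the CHR, the CCAAT box and the E2F site in either orientation. Mitosis promoters are those of Ube2c at chr2:164769829-164769978 (plus strand), Cdc20 at chr4:118437294-118437443 (minus strand), Plk1 at chr7:122159335-122159484 (plus strand), Cdk1 at chr10:69352863-69353012 (minus strand) and Bub1b at chr2:118598111-118598260 (plus strand), and MCM helicase promoters are those of Mcm3 at chr1:20820263-20820412 (minus strand), Mcm6 at chr1:128359656-128359805 (minus strand) and Mcm7 at chr5:138171834-138171983 (minus strand). In Mcm7 the E2F site and the CCAAT box share a base. Counted from the start as position 1, with the base before it as -1, the CHR began at -29 in Ube2c, -18 in Cdc20, -71 and -15 in Cdk1, 31 in Plk1 and 41 in Bub1b.
Ube2c: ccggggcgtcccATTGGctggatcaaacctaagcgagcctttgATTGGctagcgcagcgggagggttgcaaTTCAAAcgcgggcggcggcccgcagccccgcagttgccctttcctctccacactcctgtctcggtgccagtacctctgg
Cdc20: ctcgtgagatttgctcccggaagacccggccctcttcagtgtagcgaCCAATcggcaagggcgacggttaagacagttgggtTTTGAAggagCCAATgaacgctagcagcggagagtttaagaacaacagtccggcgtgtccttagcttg
Plk1: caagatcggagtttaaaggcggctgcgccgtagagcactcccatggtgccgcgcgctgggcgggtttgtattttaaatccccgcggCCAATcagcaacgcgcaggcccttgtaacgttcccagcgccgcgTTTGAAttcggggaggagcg
Cdk1: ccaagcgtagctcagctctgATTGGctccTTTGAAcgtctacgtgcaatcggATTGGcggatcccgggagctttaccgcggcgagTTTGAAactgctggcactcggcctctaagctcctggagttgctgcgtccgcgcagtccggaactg
Bub1b: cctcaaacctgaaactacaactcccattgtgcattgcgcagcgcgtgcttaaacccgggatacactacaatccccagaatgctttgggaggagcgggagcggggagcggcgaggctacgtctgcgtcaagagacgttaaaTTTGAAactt
Mcm3: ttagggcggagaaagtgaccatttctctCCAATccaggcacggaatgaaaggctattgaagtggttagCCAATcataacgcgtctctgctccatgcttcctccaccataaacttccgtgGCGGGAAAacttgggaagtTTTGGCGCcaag
Mcm6: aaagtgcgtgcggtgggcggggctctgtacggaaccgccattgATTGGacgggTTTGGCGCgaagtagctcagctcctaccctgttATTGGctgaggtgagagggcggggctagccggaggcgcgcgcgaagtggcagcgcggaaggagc
Mcm7: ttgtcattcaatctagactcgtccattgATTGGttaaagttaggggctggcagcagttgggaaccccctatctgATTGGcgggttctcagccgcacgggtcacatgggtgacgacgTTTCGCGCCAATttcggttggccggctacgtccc

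Read totals are not recoverable from TPM, so depth is unknown, and error is taken from the spread between libraries. Genes of at least 1 TPM numbered 11573 to 12809 in resistant tumors, 11963 to 13308 in parental tumors, 10470 to 10799 in resistant culture and 10654 and 10978 in parental culture. The colon epithelium markers (Epcam, Cdh1, keratins, Vil1, Cdx1 and Cdx2) summed to at most 12.8 TPM in any library, so the labelled colon origin is not visible in these genes. Summed macrophage markers were 250.2 to 499.6 TPM in resistant tumors and 244 to 1091 TPM in parental tumors, beside 6.004 to 8.397 TPM in resistant and 12.1 and 31.98 TPM in parental culture. Ptprc, the pan-leukocyte gene, was at 19.8 to 50.3 TPM in resistant and 14.5 to 53.7 TPM in parental tumors, and at no more than 0.147 TPM in any culture library. Tumor values therefore mix line and host cells, and in bulk samples fewer cells of a type and less RNA per cell cannot be told apart. The titles place tumors and cultures in 2 differently named library series, so setting and series cannot be told apart. Parental tumor 2 stood apart, with a median correlation to its group of 0.884 beside 0.934 to 0.971 for the other parental tumors.

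The parental tumors also differed in a measure that moved with many members. A GC index, the median log2 level of GC-rich minus GC-poor genes, was above 0.5 in parental tumors 2, 3, 7 and 8 (0.906, 0.596, 0.637 and 0.772). It was at most 0.287 in the other 9 parental tumors and ran from -0.549 to 0.280 in resistant tumors. The ranges of those 4 tumors and the other 9 did not overlap for 13 of 48 members. The kinase gene Cdk6 was at 3.79 to 21.6 TPM in the 4 and 40.1 to 61.2 TPM in the 9. Cdkn1b was at 7.17 to 31.3 TPM in the 4 and 59.6 to 110.3 TPM in the 9. The helicase subunit Mcm5 and the mitotic kinase Plk1 were lower in the 4 as well, at 16.3 to 46.03 TPM and 23.8 to 64.4 TPM. In the other direction, Mcm7 was at 149 to 278 TPM in the 4 and 74.3 to 111 TPM in the 9. Top2a was at 323 to 602 TPM in the 4 and 147 to 284 TPM in the 9. Aurka, a spindle pole kinase, was at 139 to 214 TPM in the 4 and 59.2 to 93.8 TPM in the 9, and E2f1 at 60.6 to 96.2 TPM in the 4 and 30.9 to 51.7 TPM in the 9. Mcm2, Mcm3, Cdc20, Mybl2 and Cenpe were also higher in the 4 without overlap. The 9 members that were higher made up 18.8% and the 4 that were lower 8.33%, beside 8.39% and 11.6% of 10046 genes with a tumor mean of at least 5 TPM. The 9 higher members held 51.3% (Mcm7) to 58.1% GC (E2f1), except Cenpe (43.5%) and Top2a (42.9%). The 4 lower members held 43.9% (Cdkn1b), 47.8% (Cdk6), 53.5% (Mcm5) and 56.1% GC (Plk1). The 35 members whose ranges overlapped held 37.5% (Ccne2) to 59.1% GC (Cdkn2a). Members were not left out of the index, so E2f1, Mybl2, Mcm2 and Plk1 are among its GC-rich genes. Whether the index reflects library preparation or tissue was not tested. Calls that end without these 4 libraries are named beside the comparisons with parental tumors.

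The 48 members summed to 4999 to 6389 TPM in resistant tumors, 4323 to 6211 TPM in parental tumors, 6492 to 7172 TPM in resistant culture and 6473 and 7416 TPM in parental culture. In resistant tumors the highest mean was that of the A-type cyclin Ccna2 (398 ± 74.6 TPM, SD, n = 12). Then came Ube2c (384 ± 69.1 TPM), which loads ubiquitin for the anaphase-promoting complex, the mitotic kinase Cdk1 (362 ± 56.6 TPM) and Ccnd1 (309 ± 43.2 TPM). Ccna2 and Ube2c each differed from the next in this order by less than 1 SD. Ube2c led in parental tumors (372 ± 83.9 TPM, n = 13), resistant culture (710.1 ± 35.5 TPM, n = 5) and parental culture (645 TPM, n = 2). At the low end stood the kinesin Kif11 and Rb1, at 11.1 and 10.8 TPM in resistant tumors.

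**Figure D1:**
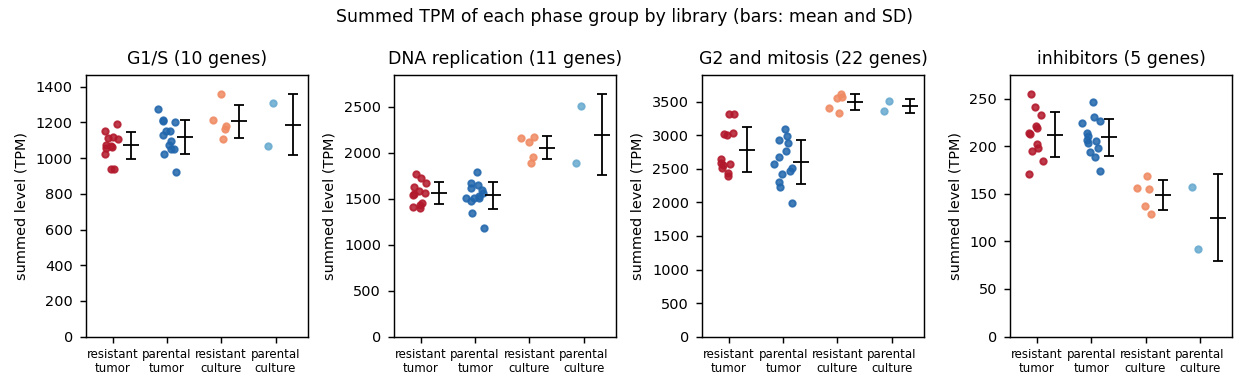
Summed TPM of the 4 groups of cell cycle genes in each library (y axis, TPM) by group (x axis), with 1 point per library and bars for the mean and SD. The replication sums of tumors (1399 to 1772 TPM resistant, 1183 to 1794 TPM parental) lie below those of culture (1884 to 2170 TPM resistant, 1884 and 2508 TPM parental), and the inhibitor sums lie above.

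The first comparison asked how resistant tumors differed from parental tumors in untreated mice. In the mitosis group, Ccna2, Bub1b, Mki67 and Foxm1 were higher in resistant tumors, by 0.34 to 0.59 on the log2 scale, while Top2a and Hmmr were lower. Calls made up 27.3% of this group, beside 30.2% of all genes tested. The inhibitor Cdkn1a and the G1 genes Ccnd3 and Cdk4 were lower, and the inhibitor Cdkn1b and the replication gene Rrm2 were higher. Of 48 members, 6 were higher and 5 lower (limma, adjusted p under 0.05 over all 12095 genes tested). They made up 22.9% of the members, beside 30.2% of all genes tested (16.3% higher and 13.9% lower). The median log2 fold change, resistant minus parental, was 0.052 over the members and 0.040 over all genes tested. No member separated the lines' tumors without overlap. Shares of all genes without overlap are not given for the comparisons here, so overlap or its absence describes single genes only. Fold changes printed beside the levels are on the log2(TPM + 1) scale with their SE where given.

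Among G1/S genes, Ccnd3, a D-type cyclin, was at 65.1 to 136 TPM (median 85.5) in resistant tumors and 94.8 to 159.7 TPM (median 117) in parental tumors. Cdk4, the kinase that D-type cyclins activate, was at 169.8 to 263 TPM (median 222) in resistant and 193 to 301 TPM (median 266) in parental tumors. For both genes 11 of 12 resistant tumors lay below the parental mean and the ranges overlapped. The log2 fold changes were -0.35 ± 0.11, adjusted p = 0.0168, for Ccnd3 and -0.23 ± 0.078, adjusted p = 0.0232, for Cdk4 (± SE). Ccnd1, the D-type cyclin with the highest level, was at 232 to 359.9 TPM (median 311) in resistant and 221 to 373 TPM (median 302) in parental tumors, nearly the same span (0.035, adjusted p = 0.792). Ccnd2 was at 89.5 to 199 TPM (median 144) in resistant tumors and 59.6 to 269.9 TPM (median 166) in parental tumors (-0.20, adjusted p = 0.427), with the wider spread in parental tumors. Cdk6, the partner kinase of Cdk4, was at 34.9 to 70.4 TPM (median 54.6) in resistant and 3.79 to 61.1 TPM (median 50.6) in parental tumors (0.58, adjusted p = 0.136), and its lowest parental values were those of the 4 tumors of high GC index. The other 5 members of this group, the E-type cyclins Ccne1 and Ccne2, their kinase Cdk2, the phosphatase Cdc25a and E2f1, did not pass the test, with log2 fold changes from 0.05 to 0.27. Without the 4 parental tumors Ccnd3 was not called (-0.26, adjusted p = 0.0834), while E2f1 was higher (0.46, adjusted p = 0.0135) and Ccnd2 lower (-0.42, adjusted p = 0.0391).

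**Figure D2:**
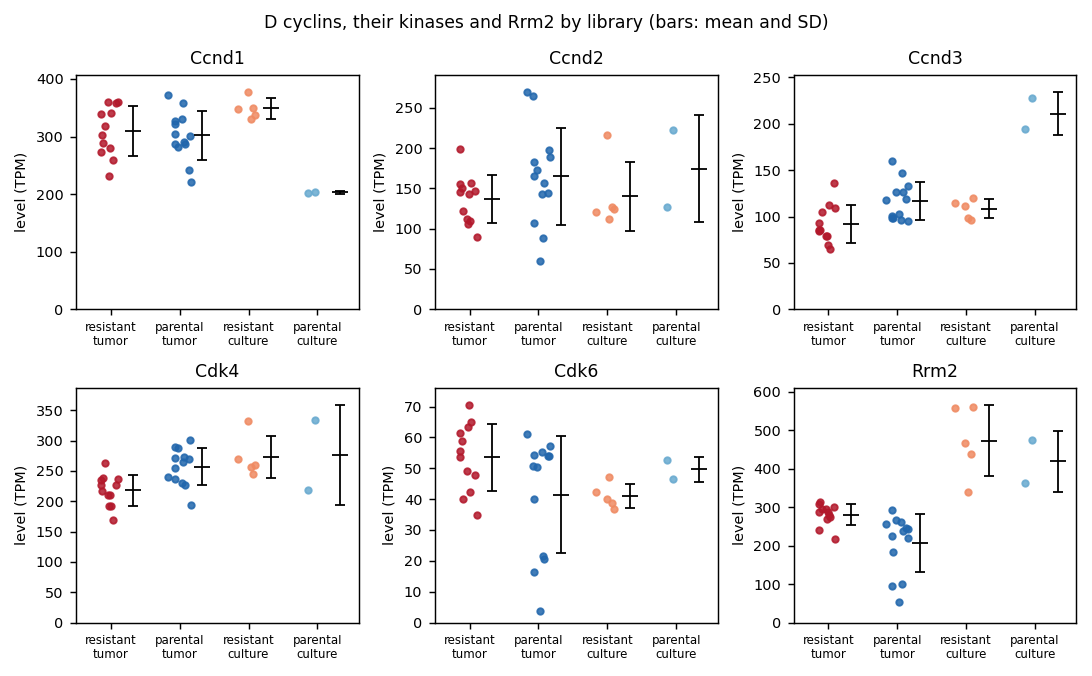
Levels (y axes, TPM from 0) of the D-type cyclins Ccnd1, Ccnd2 and Ccnd3, the kinases Cdk4 and Cdk6 and the ribonucleotide reductase gene Rrm2 by group (x axes), 1 point per library with bars for the mean and SD. Ccnd1 differs between the lines in culture, where all 5 resistant libraries lie above both parental ones, and spans the same range in tumors.

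Among DNA replication genes, Rrm2, the small subunit of the enzyme that makes deoxynucleotides, passed the test. It was at 217 to 312 TPM (median 288) in resistant tumors and 54.0 to 294 TPM (median 239) in parental tumors (0.57 ± 0.20, adjusted p = 0.0332), and all 12 resistant tumors lay above the parental mean. The 3 lowest parental values, 53.98, 96.1 and 99.9 TPM, came from tumors of high GC index, and without the 4 such tumors the log2 fold change was 0.21 (adjusted p = 0.0648). The other 10 members of this group did not pass, although the origin factor Cdc6 was lower without those tumors (-0.32, adjusted p = 0.0206). Their log2 fold changes ran from -0.26 for the helicase subunit Mcm7 to 0.24 for the helicase subunit Mcm5, with the sliding clamp Pcna at -0.17, the large reductase subunit Rrm1 at 0.03 and the thymidylate synthase Tyms at 0.22.

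In the mitosis group, 4 of 22 members were higher and 2 lower (18.2% and 9.1%, beside 16.3% and 13.9% of all genes tested). Ccna2, which pairs with Cdk2 in S phase and Cdk1 in G2, was at 279.7 to 569.8 TPM (median 382) in resistant tumors and 229.8 to 292 TPM (median 262) in parental tumors. Bub1b, the checkpoint kinase-like protein that delays anaphase until chromosomes are attached, was at 64.1 to 79.2 TPM (median 72.2) in resistant and 41.4 to 71.2 TPM (median 47.6) in parental tumors. The ranges overlapped in both genes. For Ccna2 the resistant tumor with 279.7 TPM lay below 3 parental tumors, at 291.1, 291.3 and 292.3 TPM. For Bub1b, parental tumor 2, which is among the 4 of high GC index, had 71.2 TPM and lay above 6 resistant tumors, while the other 12 parental tumors lay below every resistant one. The log2 fold changes were 0.59 ± 0.087, adjusted p = 1.22e-05, for Ccna2 and 0.52 ± 0.08, adjusted p = 1.83e-05, for Bub1b, and every resistant tumor lay above the parental mean for both. Mki67, the proliferation antigen that coats mitotic chromosomes, was at 153 to 222 TPM (median 179) in resistant and 113 to 181 TPM (median 143) in parental tumors (0.34 ± 0.082, adjusted p = 0.00257), with all 12 resistant tumors above the parental mean. Foxm1 was at 87.2 to 142 TPM (median 118) in resistant tumors and 67.6 to 140.1 TPM (median 82.9) in parental tumors (0.39 ± 0.11, adjusted p = 0.00777), with 10 of 12 resistant tumors above it. These 4 calls, and that of Cdk4, held under each of the 11 alternative settings.

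Top2a, the topoisomerase that untangles sister chromatids, was lower, at 156 to 266 TPM (median 193) in resistant tumors against 147 to 602 TPM (median 279) in parental tumors (-0.46 ± 0.15, adjusted p = 0.0203). Hmmr, a spindle-associated hyaluronan receptor, was at 19.5 to 31.9 TPM (median 26.0) in resistant and 21.2 to 44.4 TPM (median 31.9) in parental tumors (-0.32 ± 0.11, adjusted p = 0.0267). All 12 resistant tumors lay below the parental mean for both genes, but the ranges overlapped. Without the 4 parental tumors of high GC index neither was called (Top2a -0.23, adjusted p = 0.158, and Hmmr -0.25, adjusted p = 0.0793), while the B-type cyclin Ccnb2 was higher (0.40, adjusted p = 0.0209). Cdk1 itself (0.062, adjusted p = 0.658), the B-type cyclin Ccnb1 (0.37, adjusted p = 0.0869), Plk1 (0.23, adjusted p = 0.208) and Ube2c (0.053, adjusted p = 0.763) did not pass. The other 12 members of the group that did not pass had log2 fold changes from -0.19 for the chromosome passenger kinase Aurkb to 0.21 for Ccnb2.

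**Figure D3:**
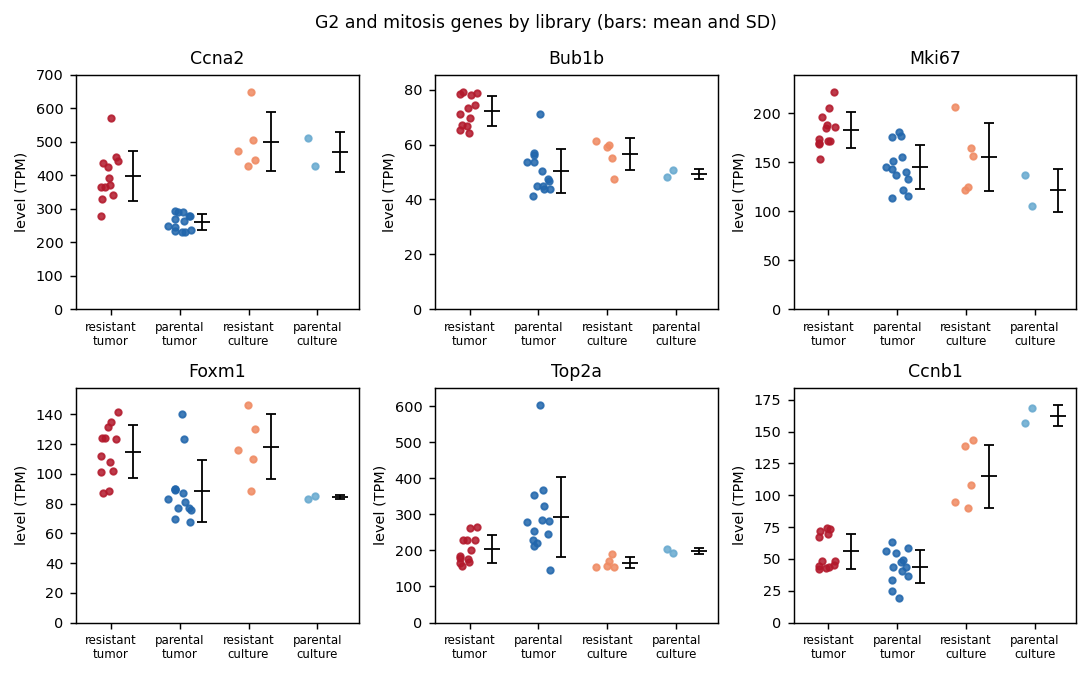
Levels (y axes, TPM from 0) of 6 mitosis genes by group (x axes), 1 point per library with bars for the mean and SD. Ccna2 and Bub1b are higher in resistant than in parental tumors with some overlap, Top2a has 1 parental tumor at 602 TPM, and Ccnb1 is lower in tumors than in culture of either line.

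Of the 5 inhibitors, 1 was lower and 1 higher. Cdkn1a (p21), the kinase inhibitor induced by p53, was at 39.2 to 74.8 TPM (median 50.8) in resistant tumors and 47.1 to 155 TPM (median 77.7) in parental tumors (-0.55 ± 0.14, adjusted p = 0.00468). Cdkn1b (p27), which restrains Cdk2, was at 42.9 to 120.1 TPM (median 93.9) in resistant tumors and 7.17 to 110.3 TPM (median 63.7) in parental tumors (0.99 ± 0.32, adjusted p = 0.0199). All 12 resistant tumors lay below the parental mean of Cdkn1a and 11 of 12 above that of Cdkn1b, and both ranges overlapped. The Cdkn1a call was made without the 4 parental tumors of high GC index too, and ended once the fit held the GC index (-0.30, adjusted p = 0.053). That of Cdkn1b ended without them (0.33, adjusted p = 0.106) and with the covariate (0.26, 0.297). Cdkn2a, whose symbol covers both p16 (Ink4a) and p19 (Arf) so that the table cannot separate them, was at 28.0 to 57.9 TPM (median 42.2) in resistant and 25.8 to 57.1 TPM (median 47.0) in parental tumors. Cdkn2b (p15) was at 11.7 to 25.5 TPM (median 16.1) in resistant tumors and 14.7 to 27.8 TPM (median 20.1) in parental tumors, and Rb1 at 8.55 to 13.7 TPM (median 10.1) in resistant tumors and 7.91 to 23.2 TPM (median 12.4) in parental tumors. None of these 3 passed the test (0.0049, adjusted p = 0.982, for Cdkn2a, -0.23, adjusted p = 0.228, for Cdkn2b and -0.33, adjusted p = 0.0677, for Rb1). Rb1 was called lower under quantile normalization (-0.38, adjusted p = 0.0317), median-of-ratios scaling (-0.36, adjusted p = 0.0404) and array weights (-0.40, adjusted p = 0.0294). Cdkn2b was called lower with Ptprc as a covariate (-0.37, adjusted p = 0.0293).

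In a fit that held the GC index, 14 members were higher and 2 lower in resistant tumors, beside 18% and 15.1% of all genes. Bub1b, Ccna2, Foxm1 and Mki67 were still higher and Cdk4 still lower, Ccnd2 became lower, and the members newly higher were Aurka, Birc5, Ccnb2, Ccne1, Cenpe, E2f1, Kif11, Mcm3, Rrm1 and Tpx2. Leukocyte markers, too, moved with the lines, and their sum was 279 to 557 TPM in resistant and 219 to 913 TPM in parental tumors. Lower were 3 of 4 leukocyte, 6 of 7 macrophage and 2 of 6 tested T and NK cell markers, beside 13.9% of all genes tested. Of 4 endothelial markers none was called. Higher were 3 of 5 fibroblast markers, beside 16.3% of all genes tested. The fibroblast markers were also present in culture, where their sum was at least 257.2 TPM in every resistant library. In parental culture that sum was at most 61.34 TPM. Whether the higher fibroblast markers of resistant tumors came from host or line cells was not tested. The part of all these markers in the members' differences was not tested beyond 1 fit. With Ptprc as a covariate the 11 calls were all made again and 10 more members were called, beside 44.4% of all genes. Newly higher were Cdk6, Mcm5, Tyms, Ccnb1 and Plk1, and newly lower were Mcm2, Mcm3, Mcm7, Aurka and Cdkn2b. Mcm3 (-0.30, adjusted p = 0.0423) and Aurka (-0.41, adjusted p = 0.0142) were thus called in the direction opposite to the fit that held the GC index.

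**Figure D4:**
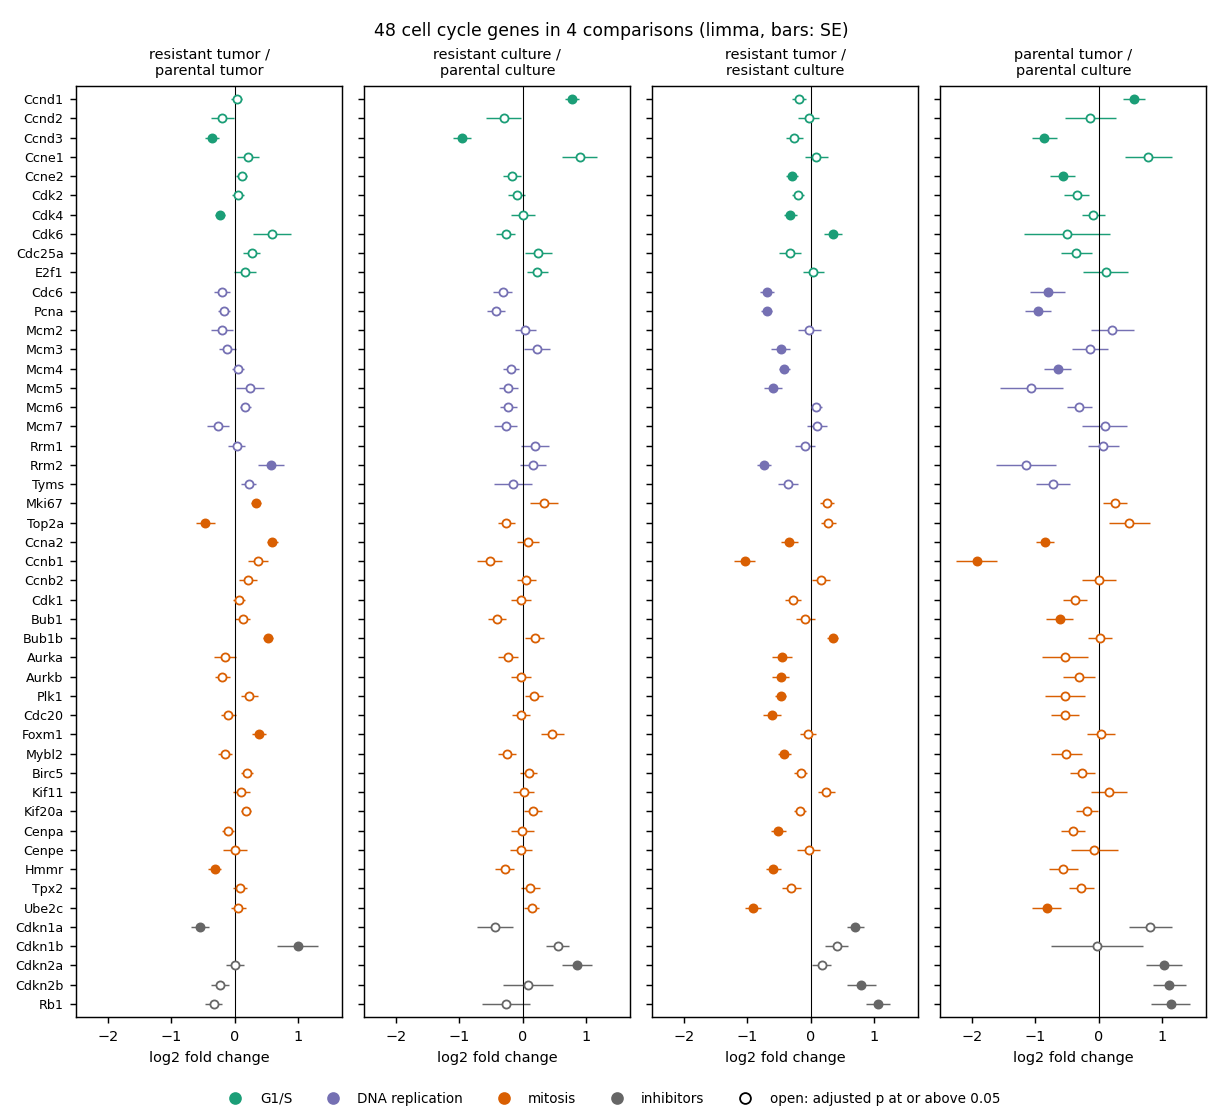
Log2 fold changes with SE (x axes) of the 48 cell cycle genes (rows, coloured by group) in 4 comparisons, filled where the limma adjusted p is under 0.05. Calls are few and in both directions between the lines, and most calls of tumors against culture lie left of 0 except among the inhibitors.

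In culture, without host tissue, the comparison of resistant with parental cells rests on 5 and 2 libraries. The labels do not say that these came from separate cultures, so p-values measure the spread between libraries, which may be technical. Summed leukocyte markers were 17.4 to 131 TPM in resistant and 2.44 and 5.94 TPM in parental culture, mostly from Laptm5 (15.9 to 128 TPM and 2.21 and 4.67 TPM), and their part was not tested. The lines differed in their D-type cyclins: Ccnd1 was higher and Ccnd3 lower in resistant cells, and Cdkn2a was higher. These were 2 members higher and 1 lower of 48 (6.2%), beside 14.2% of 11201 genes tested (6.15% higher and 8.04% lower). The median log2 fold change was -0.014 over the members and over all genes. The calls lay in the G1/S group and among the inhibitors.

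Ccnd1 was at 331, 378, 338, 348 and 349.9 TPM in resistant culture and 204 and 201 TPM in parental culture (0.78 ± 0.11, adjusted p = 0.00285). Ccnd3 was at 98.6, 112, 120.1, 115 and 96.3 TPM in resistant and 228 and 194 TPM in parental culture (-0.96 ± 0.14, adjusted p = 0.00304). Neither gene's ranges overlapped, and both calls held under all 13 alternatives, which include leaving out each library. Cdkn2a was at 46.6, 34.0, 26.6, 38.9 and 40.5 TPM in resistant culture and 16.1 and 24.3 TPM in parental culture (0.86 ± 0.24, adjusted p = 0.0415), also without overlap. Its call ended without either parental library (0.58 without library 1, 1.14 without library 2), without resistant library 2, 4 or 5, and with no filter on low values. Ccnd2 was at 112, 216, 124, 121 and 128 TPM in resistant and 222 and 127 TPM in parental culture (-0.30, adjusted p = 0.516), with resistant library 2 and parental library 1 as its high values. Cdk4 was at 257, 332, 259.5, 269 and 245 TPM in resistant culture and 334 and 218 TPM in parental culture (0.0035, adjusted p = 0.994), high in the same libraries. Cdk6 was at 47.1, 40.01, 36.8, 42.4 and 38.7 TPM in resistant culture and 46.7 and 52.5 TPM in parental culture (-0.27, adjusted p = 0.256).

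The remaining inhibitors did not pass in culture. Cdkn1a was at 30.6, 21.9, 32.4, 32 and 38.2 TPM in resistant and 28.4 and 61.0 TPM in parental culture (-0.44, adjusted p = 0.355), and the pair of parental libraries enclosed 4 of the 5 resistant ones. Cdkn1b was at 69.6, 68.6, 58.7, 64.9 and 66.6 TPM in resistant culture and 35.1 and 55.7 TPM in parental culture, higher in every resistant library without a call (0.56, adjusted p = 0.0714). Cdkn2b was at 18.5, 9.92, 6.77, 10.1 and 5.33 TPM in resistant culture and 7.13 and 10.7 TPM in parental culture (0.083, adjusted p = 0.918). Rb1 was at 3.02, 3.19, 4.57, 10.03 and 4.16 TPM in resistant culture and 5.71 and 5.65 TPM in parental culture (-0.26, adjusted p = 0.685), where resistant library 4 was the high value. Mki67 was at 125, 122, 157, 207 and 165 TPM in resistant and 106 and 137 TPM in parental culture (0.34, adjusted p = 0.332). Top2a was at 169, 157, 155, 155 and 191 TPM in resistant culture and 192 and 203 TPM in parental culture (-0.26, adjusted p = 0.217). The groups overlapped for Mki67, and for Top2a every resistant library lay below both parental ones without a call. Ccne1, which activates Cdk2, was at 19.5, 39.1, 26.8, 42.1 and 34.8 TPM in resistant culture and 15.2 and 17.6 TPM in parental culture, above both parental libraries in every resistant one. It did not pass (0.90 ± 0.28, adjusted p = 0.0611), but was called under quantile normalization (0.92, adjusted p = 0.0497) and without resistant library 1 (1.065, adjusted p = 0.00933). Without that library Foxm1 was also called (0.57, 0.0297), and without parental library 2, Cdkn1b (0.88, 0.0292) and Pcna (-0.65, 0.0376).

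**Figure D5:**
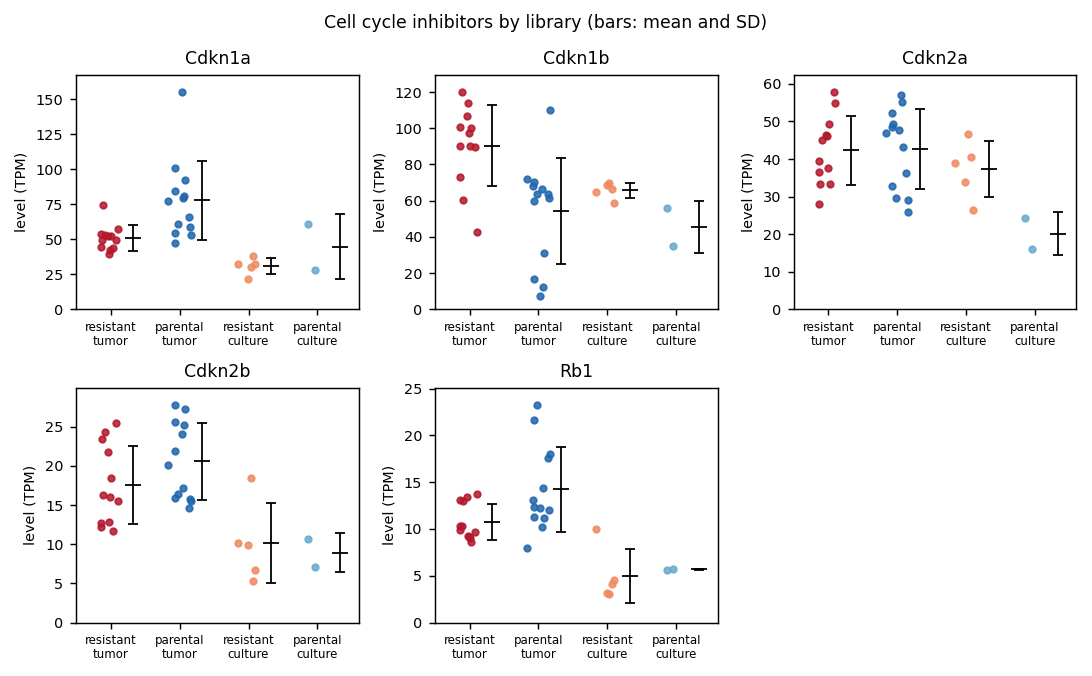
Levels (y axes, TPM from 0) of the inhibitors Cdkn1a, Cdkn1b, Cdkn2a, Cdkn2b and Rb1 by group (x axes), 1 point per library with bars for the mean and SD. Cdkn2b and Rb1 are higher on average in tumors than in culture of either line, with resistant culture 1 (Cdkn2b) and 4 (Rb1) inside the range of resistant tumors. In 4 parental tumors Cdkn1b is at 7.17 to 31.3 TPM, below the other 9.

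The next comparison set tumors against cultured cells of the same line. In the resistant line, 18 of 48 members were lower in tumors and 5 higher, beside 50.3% of 12312 genes called (15% lower and 35.3% higher). The lower members lay in the mitosis group (10 of 22), the replication group (6 of 11) and the G1/S group (2 of 10), and 3 of the 5 higher members were inhibitors. In the parental line 9 members were lower and 4 higher, beside 22.1% of 14348 genes (5.99% lower and 16.1% higher). The lower ones were 4 of 22 mitosis, 3 of 11 replication and 2 of 10 G1/S genes, and 3 of the 4 higher ones were inhibitors. The median log2 fold change, tumor minus culture, was -0.20 over the members and 0.18 over all genes in the resistant line, and -0.29 and 0.21 in the parental line. Quantile normalization moved the median of all genes to -0.13 and -0.094, and median-of-ratios scaling to 0.064 and 0.14. In the resistant line 19 members were lower and 5 higher under quantile normalization, beside 29.1% and 18.5% of all genes. Under median-of-ratios scaling 27 members were lower and 4 higher, beside 21% and 30.1% of all genes. Host RNA is part of every tumor library and its part in these differences was not tested.

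In the resistant line, the replication genes Pcna, Cdc6, Mcm4, Mcm5 and Rrm2 were lower in tumors without overlap, and the share of all genes without overlap is not given here. Pcna was at 225 to 329 TPM (median 239) in resistant tumors and 407, 429.7, 405, 389 and 379 TPM in resistant culture (-0.69 ± 0.087, adjusted p = 1.33e-06). It was at 179 to 358 TPM (median 279.7) in parental tumors and 632 and 460.2 TPM in parental culture (-0.95 ± 0.20, adjusted p = 0.00217). Cdc6, which loads the helicase at origins, was at 14.2 to 23.0 TPM (median 16.3) in resistant tumors and 30.2, 26.5, 26.1, 28.6 and 30.1 TPM in resistant culture (-0.69 ± 0.11, adjusted p = 3.62e-05). It was at 8.93 to 25.2 TPM (median 21.0) in parental tumors and 33.3 and 37.6 TPM in parental culture (-0.81 ± 0.28, adjusted p = 0.0446). All tumors of both lines were below their cultures for these 2 genes. Rrm2 was at 340.3, 467, 561, 559 and 437 TPM in resistant culture, above every resistant tumor (-0.73 ± 0.11, adjusted p = 1.35e-05). It was at 476 and 362 TPM in parental culture, above every parental tumor but with no call (-1.14, adjusted p = 0.0933). The helicase subunit Mcm4 was at 72.2 to 101 TPM (median 83.3) in resistant tumors and 122, 102, 118, 107 and 115 TPM in resistant culture (-0.41 ± 0.091, adjusted p = 0.000822). It was at 58.5 to 106 TPM (median 84.2) in parental tumors and 137 and 120.1 TPM in parental culture (-0.65 ± 0.21, adjusted p = 0.036). Its groups did not overlap in either line. Mcm5 was at 47.9 to 105 TPM (median 83.4) in resistant tumors and 116, 116, 124, 122 and 132 TPM in resistant culture (-0.60 ± 0.14, adjusted p = 0.00161). Between parental tumors and culture it was not called (-1.06, adjusted p = 0.138) although every tumor lay below both cultures. Mcm3 was also lower in resistant tumors (-0.48, adjusted p = 0.0135), a call that ended without resistant culture 1 or 5. Mcm6 and Mcm7 did not pass in either line. Pcna has pseudogenes in the annotation, as have Tyms, Ccnb1, Ccnb2 and Ccnd3, so reads may be split for these genes. Only Pcna-ps2 has a row, at no more than 2.38 TPM.

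In the mitosis group, Ccnb1, the cyclin whose destruction ends mitosis, had the largest fall among the members. It was at 41.7 to 73.9 TPM (median 48.5) in resistant tumors and 89.96, 138, 143, 94.4 and 108 TPM in resistant culture. It was at 19.6 to 63.1 TPM (median 44.04) in parental tumors and 168 and 157 TPM in parental culture. No tumor reached the level of a culture library of its line, and the log2 fold changes were -1.04 ± 0.17, adjusted p = 3.01e-05, and -1.93 ± 0.33, adjusted p = 0.000247. Ube2c was at 248.6 to 484 TPM (median 404) in resistant tumors and 661, 733, 741, 684 and 731 TPM in resistant culture (-0.91 ± 0.13, adjusted p = 4.72e-06). It was at 258 to 557 TPM (median 356) in parental tumors and 689 and 601 TPM in parental culture (-0.82 ± 0.23, adjusted p = 0.0151). Cdc20, the activator of the anaphase-promoting complex, was at 44.7 to 85.7 TPM (median 56.99) in resistant tumors and 87.8, 96.5, 92.9, 90.8 and 88.0 TPM in resistant culture (-0.61 ± 0.14, adjusted p = 0.00147). Hmmr was at 19.5 to 31.9 TPM (median 26.0) in resistant tumors and 42.8, 42.5, 38.8, 34.1 and 36.3 TPM in resistant culture (-0.59 ± 0.12, adjusted p = 0.000271). Ube2c, Cdc20 and Hmmr showed no overlap between resistant tumors and culture. Cenpa, the centromeric histone, Plk1, Aurka, Aurkb, Mybl2 and Ccna2 were also lower there, from -0.51 for Cenpa to -0.34 for Ccna2.

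Ccna2 was at 649, 428, 445, 474 and 506 TPM in resistant culture, where 4 of 12 resistant tumors reached into the range. It was at 428 and 511 TPM in parental culture, above every parental tumor (-0.85 ± 0.15, adjusted p = 0.000303). The resistant-line call of Ccna2 (-0.34, adjusted p = 0.0396) ended without resistant culture 1 (-0.24, adjusted p = 0.153), 4 or 5, without a filter, and under quantile normalization. Bub1, the partner checkpoint kinase of Bub1b, was at 26.2 to 49.4 TPM (median 36.1) in parental tumors and 49.4 and 59.7 TPM in parental culture (-0.62 ± 0.21, adjusted p = 0.0419), a narrow overlap. Bub1b went the other way in the resistant line: it was at 59.7, 59.3, 47.4, 61.5 and 55.1 TPM in resistant culture, below every resistant tumor (0.35 ± 0.087, adjusted p = 0.00236). It was at 50.7 and 48.05 TPM in parental culture, within the range of parental tumors (0.016, adjusted p = 0.957). Mki67 (0.26, adjusted p = 0.0626, and 0.25, adjusted p = 0.347) and Top2a (0.28, adjusted p = 0.0688, and 0.48, adjusted p = 0.293) were not called in the resistant or the parental line, and their estimates were above 0. Under quantile normalization both were higher in resistant tumors than in resistant culture (Mki67 0.29, adjusted p = 0.0235, and Top2a 0.33, adjusted p = 0.0234).

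G1/S genes were called less evenly. Ccne2, an E-type cyclin, was at 58.2 to 86.3 TPM (median 65.5) in resistant tumors and 75.3, 72.0, 84.2, 88.6 and 94.2 TPM in resistant culture (-0.30 ± 0.098, adjusted p = 0.0146). It was at 46.7 to 81.0 TPM (median 61.5) in parental tumors and 94.4 and 90.6 TPM in parental culture (-0.57 ± 0.19, adjusted p = 0.039). Only the parental line was free of overlap, and the resistant call ended without resistant culture 5. Cdk4 was lower in resistant tumors than in resistant culture (-0.32, adjusted p = 0.011) and Cdk6 higher (0.35, adjusted p = 0.0436), and the Cdk6 call ended under 8 of 11 alternatives and that of Cdk4 without resistant culture 2. In the parental line, Ccnd1 was higher in every tumor than in both culture libraries (0.56 ± 0.17, adjusted p = 0.0263) and Ccnd3 lower (-0.86 ± 0.20, adjusted p = 0.0035). Under median-of-ratios scaling that Ccnd1 call ended (0.48, adjusted p = 0.0685). The resistant line gave -0.18, adjusted p = 0.146, for Ccnd1 and -0.26, adjusted p = 0.133, for Ccnd3, neither called. Ccnd2 was not called in either line (-0.029 resistant, -0.13 parental).

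Of the 5 inhibitors, 3 were higher in tumors than in culture in each line. Rb1 had log2 fold changes of 1.06 ± 0.19, adjusted p = 9.48e-05, in the resistant line and 1.13 ± 0.30, adjusted p = 0.0115, in the parental line, and all tumors of both lines lay above the mean of their cultures. Cdkn2b had 0.80 ± 0.23, adjusted p = 0.00594, in the resistant line and 1.11 ± 0.26, adjusted p = 0.00483, in the parental line. Both genes overlapped in the resistant line, with resistant culture 4 at 10.03 TPM for Rb1 and resistant culture 1 at 18.5 TPM for Cdkn2b. The parental call of Rb1 ended without either parental culture library (1.14 without library 1 and 1.127 without library 2). Under quantile normalization the call of Cdkn2b ended in both lines (0.42, adjusted p = 0.116 resistant, and 0.81, 0.0531 parental), and that of Rb1 in the parental line (0.745, 0.0915). Cdkn1a was higher in resistant tumors without overlap with resistant culture (0.70 ± 0.13, adjusted p = 0.000213), and Cdkn2a in parental tumors without overlap with parental culture (1.03 ± 0.28, adjusted p = 0.013). Cdkn1a in the parental line (0.81, adjusted p = 0.0952), Cdkn2a in the resistant line (0.17, adjusted p = 0.383) and Cdkn1b in either line (0.41, adjusted p = 0.0607, and -0.028, adjusted p = 0.982) did not pass. Without the 4 parental tumors of high GC index Cdkn1b was called in the parental line (0.64, adjusted p = 0.032).

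Across both lines, 7 members were lower in tumors (Ccne2, Cdc6, Pcna, Mcm4, Ccna2, Ccnb1 and Ube2c). Another 2 were higher (Cdkn2b and Rb1), none was called in opposite directions, and 21 were called in neither. Of 12273 genes tested in both lines, 4.06% were lower in both, 15.7% higher in both and 45.4% called in neither. The parental calls depend on the pair of parental culture libraries: without library 1 there were 2 members lower and 0 higher, those being Ccna2 and Ccnb1, and without library 2 there were 4 lower and 2 higher. Of all genes, 2.29% were lower and 6.51% higher without library 1, and 1.57% lower and 8.65% higher without library 2. At an unadjusted p under 0.05, 3339 of 15976 genes passed without library 1. Without the 4 tumors of high GC index 18 members were lower and 5 higher in the parental line, beside 10.7% and 22% of all genes, the added falls being those of Mcm5, Rrm2, Tyms, Cdk1, Aurka, Cdc20, Mybl2, Cenpa and Hmmr.

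The resistant-minus-parental difference in tumors was set against that in culture in 1 fit over all 32 libraries. Only Ccnd1 among the 48 members passed and it was lower (2.1%, beside 4.01% of 15061 genes, 2.4% higher and 1.61% lower), with -0.74 ± 0.19 (SE, log2, adjusted p = 0.0156): the resistant-minus-parental estimate was 0.035 in tumors and 0.78 in culture. The call ended without either parental culture library (adjusted p = 0.0835 without library 1 and 0.168 without library 2), while the estimate stayed between -0.75 and -0.73. For Ccnb1 (0.89 ± 0.35, adjusted p = 0.188), Cdkn2a (-0.86 ± 0.31, adjusted p = 0.134), Ccnd3 (0.60 ± 0.24, adjusted p = 0.185) and Cdk6 (0.86 ± 0.63, adjusted p = 0.613) the estimates were large but did not pass. A call in tumors or in culture alone does not show that the lines differed more there.

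Other genes of the same pathways were taken from lists that hold no member. Of 32 further G1/S and replication genes, 4 were higher and 2 lower in resistant than in parental tumors (18.8%, beside 30.2% of all genes tested). Higher were the polymerase subunits Pola1 (54.9 TPM in resistant against 33.4 TPM in parental tumors on average, 0.68, adjusted p = 0.000741) and Pold1 (0.34, adjusted p = 0.018) and the origin kinase activator Dbf4 (0.34, adjusted p = 0.0307) among others, and the Dbf4 call ended without the 4 parental tumors of high GC index (0.22, adjusted p = 0.189). Lower was, among others, Dut (-0.58, adjusted p = 0.0016), which hydrolyses dUTP. In culture 3 of 32 were called (9.4%, beside 14.2% of all genes tested), all lower. Among them were E2f2 (-0.95, adjusted p = 0.0176) and Dut (-0.48, adjusted p = 0.0393). The culture call of Dut ended under 7 of 13 alternatives, among them without parental library 1 (-0.325, adjusted p = 0.157), and that of E2f2 without either parental library (adjusted p = 0.091 without library 1 and 0.0812 without library 2).

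Of 29 further mitosis genes, 17.2% were called between the tumors of the lines, beside 30.2% of all genes tested. Higher in resistant tumors were 3, Cdca3 (115.3 TPM in resistant against 75.8 TPM in parental tumors, 0.60, adjusted p = 2.22e-06), the central spindle kinesin Kif23 (0.56, adjusted p = 6.74e-05) and Prc1 (0.38, adjusted p = 0.00335). The kinetochore genes Cenpf (-0.44, adjusted p = 0.0128) and Ndc80 (-0.50, adjusted p = 0.0426) were lower. Neither was called without the 4 parental tumors of high GC index (Cenpf -0.38, adjusted p = 0.056, and Ndc80 -0.20, adjusted p = 0.347) or in the fit that held the index, where Ndc80 was at -0.055. In culture 1 of 29 was called (3.4%, beside 14.2% of all genes tested), the kinetochore gene Spc25. Its means were 46.3 TPM in resistant and 86.7 TPM in parental culture (-0.90, adjusted p = 0.00901), a call that ended without parental library 2 (-0.765). Of 11 tested genes of other inhibitors and of the DREAM complex, which represses cell cycle genes in resting cells, 27.3% were called, beside 30.2% of all genes. E2f5 was higher in resistant tumors (0.33, adjusted p = 0.0263) and Lin37 (-0.58, adjusted p = 0.00205) and E2f4 (-0.52, adjusted p = 0.0142) lower. Without the 4 parental tumors the calls of E2f5 (0.32, adjusted p = 0.0531) and E2f4 (-0.22, adjusted p = 0.12) ended, and that of E2f4 ended in the fit that held the GC index too (-0.16, adjusted p = 0.183). In culture Cdkn2c (p18, 0.86, adjusted p = 0.0458) and E2f5 (0.75, adjusted p = 0.0498) were higher and the antiproliferative gene Btg2 lower (-2.12, adjusted p = 0.00342). These were 27.3% of the 11 tested in culture, beside 14.2% of all genes tested. The calls of Cdkn2c and E2f5 ended under 8 and 9 of 13 alternatives, including without either parental library.

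Targets of p53 were listed because Cdkn1a belongs to them. Of 16 tested in tumors, 2 were higher and 5 lower (43.8%, beside 30.2% of all genes tested). Plk2 was at 21.0 TPM in resistant and 47.3 TPM in parental tumors on average (-1.13, adjusted p = 7.09e-07) and separated the lines without overlap. Ccng1 (-0.35, adjusted p = 0.00636) and the receptor Eda2r (-0.65, adjusted p = 0.00632) were lower, while the death receptor Fas (1.23, adjusted p = 0.00767) and Pmaip1 (0.45, adjusted p = 0.0492) were higher. The Pmaip1 call ended under 6 of 10 alternatives, among them without the 4 parental tumors of high GC index (0.26, adjusted p = 0.285). In culture 2 of 14 were higher, Fas (2.001, adjusted p = 0.0145) and Gdf15 (0.79, adjusted p = 0.0269), and 2 lower, Ccng1 (-1.01, adjusted p = 0.00249) and Plk2 (-1.02, adjusted p = 0.0334). These calls were 28.6% of the 14, beside 14.2% of all genes tested. Without parental library 1 or 2 the calls of Fas (adjusted p = 0.15 and 0.0811), Gdf15 (0.0968 and 0.0856) and Plk2 (0.232 and 0.108) ended, and those of Plk2 and Gdf15 ended under 5 and 3 further settings.

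Across tumors, 4 pairs of members were correlated within each line, 8 relations in all, with permutation tests of 100000 resamples and Benjamini-Hochberg adjustment over the 8. In resistant tumors Mki67 and Top2a had Pearson's r = 0.75 (adjusted p = 0.0398) and Spearman's rho = 0.73 (adjusted p = 0.0802), and r = 0.76 without the 2 tumors farthest from the Mki67 median. In parental tumors the same pair had r = 0.41 (adjusted p = 0.267) and rho = 0.42 (0.423), and r = 0.085 without the 2 farthest tumors. The helicase subunits Mcm2 and Mcm5 had r = -0.67 (adjusted p = 0.0398) and rho = -0.60 (0.133) in parental tumors, with r = -0.81 without the 2 tumors farthest from the Mcm2 median. Over the 9 tumors without a high GC index r was 0.35, so the negative relation rests on those 4 tumors. In resistant tumors that pair had r = -0.50 (adjusted p = 0.258) and rho = -0.27 (0.629). Cdk1 with Ccnb1 and Cdkn1a with Mki67 gave r from -0.46 to 0.215 (adjusted p = 0.258 to 0.869) and rho from -0.33 to 0.13 (adjusted p = 0.597 to 0.721).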

How the data were processed

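The authors deposited 1 table of TPM by gene symbol for 32 libraries of poly(A) RNA, made per the labels' protocols from Qiagen extracts with KAPA RNA HyperPrep kits. Per the submitters' processing notes STAR and GRCh38, a human build, were named, while 98.38% of the symbols are in GENCODE mouse release M21. Quantifier and annotation are not given in the sources used here. Deposited TPM columns sum to 1000000 and reach down to 8.57e-317, so they are estimates without counts or depth. Members and lists were chosen with earlier results of these data known.

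Values were tested as log2(TPM + 1) with limma 3.58.1 in R 4.3.3 (trend, two-sided, Benjamini-Hochberg over all genes tested, threshold 0.05), keeping genes that reach 1 TPM in at least the number of libraries of the smaller group. Fold changes are on this log2 scale and understate changes of low genes. Groups came from the labels, and replicate numbers, given in accession order, only name libraries. Sample values are printed for up to 4 called members per group and comparison with the largest fold change and for 12 fixed members. Ccne1 in culture, Hmmr between tumors and the members split by the GC index were added after their values were seen. The further pathway genes named are up to 3 per list and direction with the lowest adjusted p, apart from an item that is not reported here. The GC index used 2243 genes over 0.55 and 885 under 0.42 GC of 10046 (98.61% with a GC value). Tried besides were 0.1 as pseudocount, quantile and median-of-ratios scaling, no filter, filtering at 5 TPM, 1 fit over all libraries, a covariate (GC index or Ptprc), array weights, a rank-sum test and left-out libraries. The fits were tested on simulated data. Python 3.11.15 with pandas 2.3.3, scipy 1.17.1 and matplotlib 3.10.9 made tables and figures.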

Additional observations from a re-analysis of the deposited data

Results flagged for a closer look

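In the group of 5 resistant cultures, 8 of 76 series of values, of genes or of summed TPM, held a library far from the other 4 (gap over range above 0.71, which chance alone gives in about 1 of 20 groups). All 8 were genes. Library 2 was the high value for Ccnd2 (216.1 TPM, group median 124.5), Cdk2 (68.07 TPM, median 57.97) and Cdk4 (332.0 TPM, median 259.5). Rb1 reached 10.03 TPM in library 4 (median 4.16). Outside the members, single libraries stood at 82.41 TPM for Pola1 (median 46.3), 27.42 TPM for Ndc80 (median 20.2), 5.994 TPM for E2f5 (median 8.64) and 0.6014 TPM for Btg2 (median 0.212).

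The line difference differed between tumors and culture, by the interaction in limma over all 32 libraries, for Ccnd1 (-0.743, adjusted p = 0.0156), Spc25 (0.943, adjusted p = 0.00114) and Btg2 (2.143, adjusted p = 0.0283). For Spc25 the resistant line was not called in tumors (0.048) and lower in culture (-0.90), and Btg2 likewise (0.019 in tumors and -2.12 in culture). Without parental culture 2 the calls of Spc25 (0.814, adjusted p = 0.076) and Btg2 (1.71, adjusted p = 0.467) ended, and under quantile normalization that of Btg2 (1.724, adjusted p = 0.133). The Ccnd1 call ended without either parental culture.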

How the results depend on the processing

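No paired analysis was possible because the labels carry no replicate numbers shared between groups. Where a single parental culture is left, limma pools the spread and the lone library is assumed to vary like the other group. In resistant against parental tumors (6 members higher, 5 lower, beside 16.3% and 13.9% of all genes), the GC index as covariate gave 14 higher and 2 lower (all genes 18% and 15.1%). Ptprc as covariate gave 11 and 10 (all genes 25.2% and 19.2%), and array weights 8 lower (all genes 16.2%). In resistant against parental culture (2 higher, 1 lower, beside 6.15% and 8.04% of all genes), no filter gave 1 higher (all genes 3.3%). Leaving out each resistant culture library gave 1 to 4 higher and 1 lower (all genes 3.78% to 8.32% and 5.48% to 10.7%). In parental tumors against culture (4 higher, 9 lower, beside 16.1% and 5.99% of all genes), quantile normalization gave 2 higher (all genes 9.61%). There 1 fit over all 32 libraries gave 14 lower (all genes 9.53%). Leaving out the 4 tumors of high GC index (chosen after seeing the data) gave 18 lower (all genes 10.7%). How calls depend on single parental culture libraries is given with the comparisons above. The single call of the interaction became 0 to 1 when each culture library was left out. Among the called members and the 12 fixed ones, directions turned for estimates that were not called in the main result. In tumors these were Ccnd1 (-0.024 with Ptprc), Cdk6 (-0.097 with the GC index and -0.004 without the 4 tumors) and Cdkn2a (-0.026 under quantile and -0.026 under median-of-ratios scaling, -0.12 with Ptprc). Of the other members, Mcm3 (-0.116) and Aurka (-0.155) were called lower with Ptprc (-0.299, adjusted p = 0.0423, and -0.413, adjusted p = 0.0142). With the GC index both turned and were called higher (0.200 and 0.263). In culture the estimates that turned were Cdk4 under quantile normalization (-0.001) and, over the left-out libraries, Cdk4 (-0.30 to 0.31), Ccnd2 (-0.70 to 0.096), Cdkn1a (-0.98 to 0.10) and Cdkn2b (-0.18 to 0.34). For tumors against culture they were Ccnd2 in the resistant line (-0.097 to 0.14), and in the parental line Ccnd2 (-0.53 to 0.27), Cdk4 (-0.39 to 0.22) and Cdkn1b (-0.35 to 0.30), and without the 4 tumors Ccnd2 (0.088), Cdk6 (0.087) and Cdkn1b (0.64). The cause of these changes was not tested. Made under every alternative were 5 of 11 member calls between tumors of the lines, 2 of 3 between cultures, 15 of 23 and 2 of 13 between tumor and culture of the resistant and the parental line, and 0 of 1 for the interaction. Unknown depth leaves no counting interval for any value.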

Other observations

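The further pathway lists were also set against culture. In resistant tumors against resistant culture, 16 of 32 further G1/S and replication genes were lower and 2 higher, 7 of 29 further mitosis genes were lower and 3 higher, and 7 of 16 tested p53 targets were higher and 3 lower. In parental tumors against parental culture 5 of 32 and 4 of 29 were lower in the first and second list, and 1 of 16 p53 targets was lower and 6 higher. All genes tested gave 15% lower and 35.3% higher in the resistant line and 5.99% lower and 16.1% higher in the parental line.

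The spread of members between libraries differed by group of genes. The median coefficient of variation of the replication genes was 15.2% in resistant tumors and 25.3% in parental tumors, beside 7.44% in resistant culture, and that of the mitosis genes was 18.4% in resistant tumors, 21.3% in parental tumors and 10.2% in resistant culture. That of the inhibitors was 21.6% in resistant tumors, 32.03% in parental tumors and 20.1% in resistant culture. The G1/S genes went the other way between tumors, with 21.2% in resistant and 19.5% in parental tumors, beside 11.3% in resistant culture. The lowest values in resistant tumors were 7.74% for Bub1b and 9.08% for Mcm6. The highest in parental tumors were 54.1% for Cdkn1b and 46.4% for Cenpe, both split without overlap by the 4 tumors of high GC index.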
